A study of Drosophila melanogaster with 25 samples.

Results

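The antennal discs of larvae titled Uey were compared with those of wild-type larvae on 6 of the 25 arrays of a study of the eye determination gene eyeless in Drosophila melanogaster. These 6 arrays are all that the titles name as antennal: 3 of Uey antennal discs and 3 of wt antennal discs, both dissected at the third larval instar and labelled as biological triplicates. Uey was taken as the antennal counterpart of the UAS-ey leg and wing discs, larvae in which a UAS transgene drives ectopic ey. The sources used here give no driver, no insertion of the transgene, no age in hours and no sex of the larvae. The other groups used for comparison were leg discs and wing discs, each with UAS-ey and wild-type (3 arrays a group), and eye discs of wild-type larvae (4 arrays). The remaining 3 arrays, of leg discs with UAS-ey in an ato mutant, were in no tested comparison but entered the fit, and so the estimate of spread. An antennal disc is the part of the joint eye-antennal disc that forms the antenna and much of the head.

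Eyeless is a Pax6-type transcription factor. It acts at the top of the retinal determination network, in which it turns on sine oculis (so) and eyes absent (eya), and these with dachshund (dac) commit disc cells to form an eye. When ey is driven in antennal, leg or wing discs, ectopic eye tissue can form there. The wt antennal disc already carries many genes that the eye disc uses, since both grow from one primordium.

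RNA was hybridised to Affymetrix Drosophila Genome 2.0 arrays, on which a probe set measures 1 transcript or a few. Signals are given on a log2 scale and end below at a floor of 6.91 (120.5 on the linear scale), under which nothing is resolved. Of 18769 probe sets, 4952 were at the floor on all 6 antennal arrays, and 9665 of the 11981 genes measured were above it on at least 1. Of the Hox genes, Antp, a gene of thoracic discs, was at the floor on all 6 antennal arrays, and Dfd, a gene of the head, was above 10 on all 6. Pairs of Uey arrays differed by an SD of 0.077 to 0.11 across probe sets, and pairs of wt arrays by 0.125 to 0.145. The p-values rest on the spread within all 8 groups of the study, of which the ato mutant leg arrays differed most (pair SD 0.254 to 0.393). The log2 difference between the 3' and 5' GAPDH control signals was 2.28 ± 0.11 on the Uey arrays and 2.07 ± 0.08 on the wt arrays (SD, n = 3 each), without overlap, and the part of RNA quality in the results was tested only as a covariate. The probe set for ey did not rise: it was at 10.75, 10.43 and 10.49 on the Uey arrays, against 10.26, 11.09 and 11.25 on the wt arrays (log2 change -0.31, SE 0.27, adjusted p = 0.71). The groups overlapped, so this probe set gives no check of the label.

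With limma and Benjamini-Hochberg adjustment, 2160 probe sets (11.5%) passed an adjusted p of 0.05. Of these, 1322 (7.04%) were higher and 838 (4.46%) lower in Uey antennal discs. Counted as genes with 1 probe set each, 1025 of 11981 (8.56%) were higher and 697 (5.82%) lower. Most of the changes were small: the median log2 change was 0.43 among the genes that were higher and -0.36 among those that were lower. Changes of at least 2-fold that passed the test were found in 148 genes that were higher (1.24%) and 48 that were lower (0.401%), and in all 196 of them the Uey arrays did not overlap the wt arrays. Among all genes, 20.7% had the Uey arrays above the wt arrays without overlap and 21.3% below. Without adjustment, 13.6% of all genes were higher and 11.96% lower at p under 0.05 with limma, the background for unadjusted counts below.

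Flight muscle genes were among the largest rises in Uey antennal discs, with Act88F and fln at the head and 5 among the 15 largest. Of 20 measured genes of the contractile apparatus, 10 rose and 0 fell, with log2 changes of 0.44 to 6.34, against 8.56% and 5.82% of all genes. Act88F, the actin of indirect flight muscle, was at 13.26, 13.24 and 13.26 on the Uey arrays, against the floor on all 3 wt arrays, so that it was at least 81.1-fold higher (adjusted p = 2.0e-15). Flightin (fln), a thick filament protein of flight muscle, was at 12.69, 12.61 and 12.63 in Uey and at the floor in wt, at least 53-fold higher. All arrays of Uey lay far above all of wt for both genes. TpnC4, the troponin C of flight muscle, was at 11.57, 11.56 and 11.58 in Uey and at the floor in wt, at least 25.2-fold higher. The myosin light chains moved with them. The alkali light chain gene Mlc1 was at 12.21, 12.23 and 12.27 on the Uey arrays, against 8.38, 8.33 and 8.28 on the wt arrays (log2 change 3.91, SE 0.20, adjusted p = 1.0e-10). The regulatory light chain gene Mlc2 was at 10.31, 10.36 and 10.40 in Uey and at the floor in wt, at least 10.9-fold higher.

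Parts of the thin filament and the elastic filament rose by less. Troponin T (up) averaged 9.36 in Uey and 6.94 in wt antennal discs (log2 change 2.42, SE 0.10, adjusted p = 2.4e-12). Tropomyosin (Tm2) averaged 9.33 in Uey and 8.17 in wt discs, and projectin (bt) 8.99 in Uey and 8.01 in wt discs. The giant sarcomere protein gene Obsc (obscurin) rose by 0.80. Other genes of muscle did not pass the test: TpnC41C and Act79B were at the floor on all 6 arrays, and the log2 change was 0.07 for Act87E and 0.06 for Mlp60A. At an unadjusted p under 0.05, 11 genes of the list were higher and 0 lower, against 13.6% and 11.96% of all genes. The summed linear signal of the 20 genes was 35510 to 36308 on the Uey arrays, against 8600 to 8730 on the wt arrays.

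Genes of muscle precursors, which adhere to wild-type discs as adepithelial cells, moved in both directions. The mesodermal regulator twist (twi) was at 8.07, 8.31 and 8.24 on the Uey arrays, against 8.995, 8.93 and 8.73 on the wt arrays (log2 change -0.68, SE 0.09, adjusted p = 3.4e-05). The zinc finger gene zfh1 changed by -0.78 (SE 0.17, adjusted p = 0.0050) and the FGF receptor gene heartless (htl) by -0.58 (SE 0.13, adjusted p = 0.0050). Of 13 measured precursor genes, these 3 fell (23.1%, against 5.82% of all genes) and 2 rose (15.4%, against 8.56%). The 2 were blow and kirre, genes of myoblast fusion, which rose by 0.65 and 0.41, the mean over the 2 probe sets of kirre being 0.16. The summed signal of the list was 7364 to 7646 on the Uey arrays, against 7098 to 7251 on the wt arrays, higher without overlap. A linear sum gives most weight to genes of high signal. Blow averaged 11.19 in Uey and 10.54 in wt antennal discs, far above the 3 genes that fell. The higher sum thus does not show that the precursor genes rose together. The fall of twi was also lower than the change in leg (-0.11) and wing discs (-0.13) by the test of the difference. In these whole-disc samples, fewer cells of a type and less RNA per cell cannot be told apart.

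**Figure D1:**
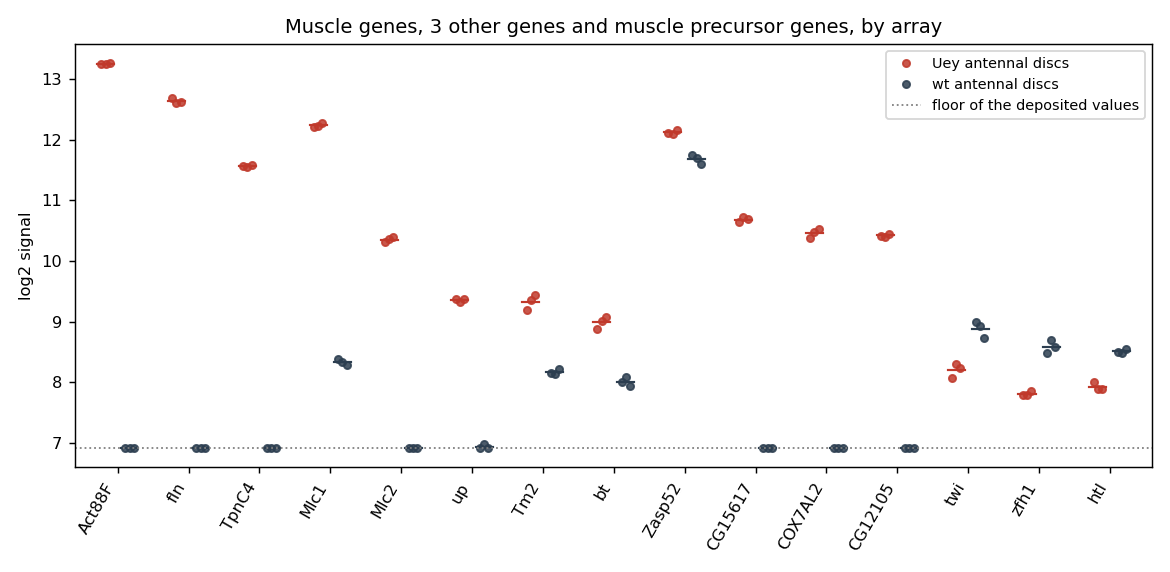
Log2 signal of 9 muscle genes, 3 other genes with large rises and 3 muscle precursor genes on each Uey and wt antennal array. Points are arrays, short lines are group means, and the dotted line is the floor. Act88F, fln, TpnC4, Mlc2, CG15617, COX7AL2 and CG12105 sit at the floor on all 3 wt arrays and above 10 on all 3 Uey arrays, while twi, zfh1 and htl are lower in Uey.

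The muscle genes did not rise in UAS-ey leg or wing discs by test. Of the 20 contractile genes, 0 were called higher and 6 lower in leg discs, and 0 either way in wing discs. In UAS-ey leg discs of the ato mutant Mlc1 averaged 10.2, against 8.80 in wild-type and 8.16 in UAS-ey leg discs, a difference not tested. UAS-ey minus wild-type changes, which share no array with the antennal comparison, were -0.06 in leg and -0.27 in wing discs for Act88F, and -0.64 and 0.04 for Mlc1. In leg and wing discs, fln, TpnC4 and Mlc2 gave values at or near the floor, with UAS-ey and in wild type. In all, 54 genes (0.451%) had an antennal change above both the leg and the wing change by the test of each difference, and 51 of them were called higher in Uey antennal discs. Lower than both were 11 genes (0.0918%). Of the 54, 8 were contractile genes of the list (Act88F, fln, TpnC4, Mlc1, Mlc2, up, Tm2 and Obsc), and 21 were known only by a CG number.

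Several more of these 54 genes are known from muscle, and they were chosen after their values were seen. The sarcoplasmic calcium-binding protein gene Scp1 was at 9.52, 9.46 and 9.43 on the Uey arrays and at the floor on the wt arrays, at least 5.88-fold higher. The ryanodine receptor gene RyR, the calcium release channel of muscle, was at 7.63, 7.77 and 7.67 in Uey and at the floor in wt. In wild-type leg, wing and eye discs both genes were at or near the floor too. The elongation factor isoform eEF1alpha2 averaged 11.16 in Uey and 8.16 in wt antennal discs (log2 change 2.997, SE 0.34, adjusted p = 6.3e-06), and its change was -0.998 in leg and 0.13 in wing discs. It was also high in wild-type eye (12.51) and leg discs (10.43). The mitochondrial phosphate carrier Mpcp1 changed by 1.19, the adenylate kinase Ak1 by 1.21 and CAP by 1.66. COX7AL2, a cytochrome c oxidase subunit-like gene, was at 10.38, 10.47 and 10.54 on the Uey arrays and at the floor on the wt arrays, at least 11.7-fold higher. The related subunit gene COX7A changed by -0.18 (SE 0.05, adjusted p = 0.016), a call lost on leaving out Uey replicate 1 or 3 or wt replicate 1 or 3 (adjusted p = 0.058 to 0.060). Of 66 measured genes of the respiratory chain, 3 rose, COX7AL2 among them, and 1 fell, shares below the background of all genes. The SNARE gene Snap25, known from synapses, was at 8.83, 8.61 and 8.78 in Uey and at the floor in wt antennal discs, and gave no signal above the floor in leg or wing discs of wild-type larvae. The piRNA pathway gene krimp was at 9.04, 8.97 and 9.07 in Uey and at the floor in wt antennal discs, with changes of 0.72 in leg and 0.23 in wing discs.

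Genes known only by a CG number made up 5209 of the 11981, and 353 of them rose and 236 fell (6.78% and 4.53%, both below the 8.56% and 5.82% of all genes). At least 2-fold changes were found in 48 of the 5209 that rose and 15 that fell, against 1.24% and 0.401% of all genes. Of the 48, 24 also rose in both UAS-ey leg and UAS-ey wing discs, 7 only passed the test in leg, 9 only in wing and 8 in neither. Of the 15, 5 also fell in both, 7 only passed in leg and 3 in neither.

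The CG-numbered gene with the largest rise was CG15617. It was at 10.64, 10.72 and 10.69 on the Uey arrays and at the floor on the wt arrays, at least 13.7-fold higher. CG12105 was at 10.42, 10.40 and 10.45 in Uey and at the floor in wt antennal discs, at least 11.4-fold higher. Both were at the floor on all leg, wing and eye arrays of wild-type larvae and stayed there with UAS-ey in leg and wing discs. CG43218 and CG5646 showed the same distribution at lower signal, with means of 8.66 and 8.52 in Uey antennal discs and the floor in wt antennal discs.

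CG4210 had another distribution. It was at 10.43, 10.62 and 10.53 on the Uey arrays and at the floor on the wt arrays, at least 12.2-fold higher, and it rose by 3.60 in leg and 3.54 in wing discs. CG42748 was likewise high with ectopic ey in all 3 discs: its probe set was at 13.02, 12.91 and 12.94 in Uey antennal discs, against 10.42, 10.45 and 10.44 in wt antennal discs (log2 change 2.52, SE 0.07, adjusted p = 2.5e-15). Its leg change was 2.27 and its wing change 2.56, but the mean over its 2 probe sets was 0.81 in the antennal comparison.

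CG42238 rose in all 3 kinds of disc, by unequal amounts. It was at 11.49, 11.56 and 11.51 on the Uey arrays, against 8.62, 8.70 and 8.54 on the wt arrays (log2 change 2.90, SE 0.13, adjusted p = 7.5e-12). It rose by 1.44 in leg and by 0.62 in wing discs, and the antennal change was larger than both (adjusted p = 6.9e-05 and 1.5e-07 for the differences). CG32373 averaged 9.78 in Uey and 7.06 in wt antennal discs, with a leg change of 2.41 and a wing change of 1.11. CG8927, at 9.69, 9.63 and 9.72 in Uey and at the floor in wt, was at least 6.81-fold higher. CG13067 was at 9.44, 9.41 and 9.55 in Uey and at the floor in wt antennal discs, at least 5.85-fold higher. Its levels in wild-type leg and wing discs were already 9.40 and 8.51, where UAS-ey changed it by 0.06 and 0.29, neither past the test.

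The falls of CG-numbered genes were smaller. CG15353 was at 6.9997, 7.14 and 7.14 on the Uey arrays, against 9.17, 9.21 and 9.25 on the wt arrays (log2 change -2.12, SE 0.38, adjusted p = 8.1e-04). Its leg and wing changes of -0.77 and 0.77 did not pass the test, and the antennal change differed from the wing change (adjusted p = 0.0073) but not from the leg change beyond the threshold (adjusted p = 0.27). CG6912 was at 7.40, 7.50 and 7.43 in Uey, against 9.57, 9.48 and 9.48 in wt antennal discs (log2 change -2.06, SE 0.14), with changes of -1.57 in leg and -1.64 in wing discs. CG33099, near the floor in Uey at 7.03, 6.95 and 6.91, was at 8.40, 8.51 and 8.47 in wt and fell in all 3 discs. CG4408 was at 8.12, 8.21 and 8.06 in Uey, against 9.80, 9.82 and 9.93 in wt antennal discs (log2 change -1.72, SE 0.26, adjusted p = 1.4e-04), and its leg and wing changes of -0.67 and -0.24 did not pass the test. CG3823, CG9416, CG15544 and CG3355 had log2 changes of -1.76, -1.58, -1.54 and -1.32. The rule that named these 8 genes admitted only genes without overlap between the groups.

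**Figure D2:**
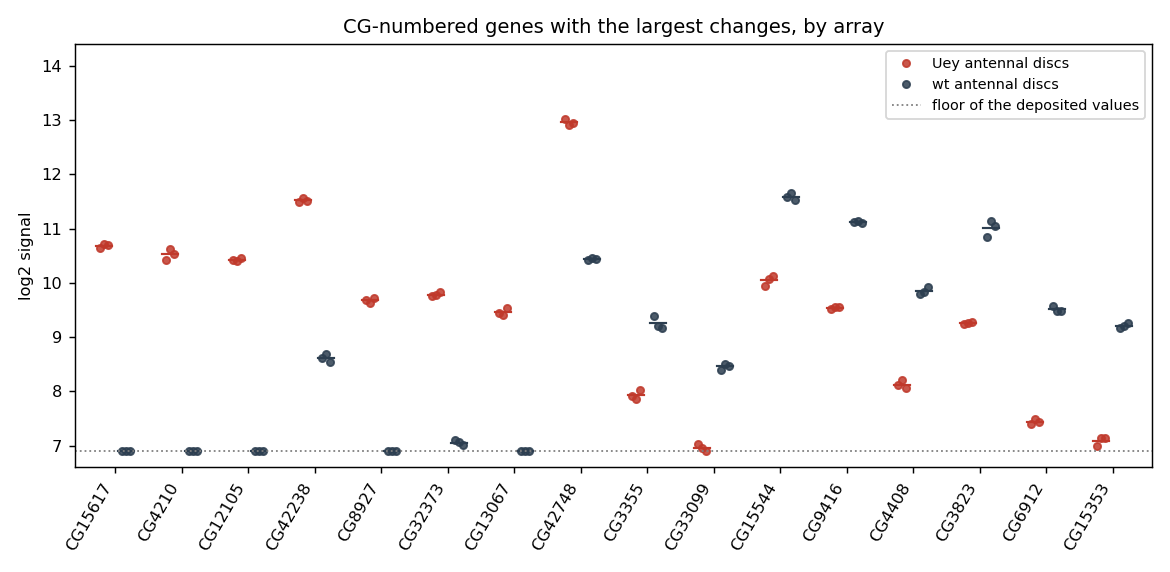
Log2 signal of the 8 CG-numbered genes with the largest rise and the 8 with the largest fall, on each Uey and wt antennal array. Points are arrays, short lines are group means, and the dotted line is the floor. CG15617, CG4210, CG12105, CG8927 and CG13067 are at the floor on all 3 wt arrays, and the 3 Uey arrays of each gene lie within a narrow band. Only genes whose Uey and wt arrays do not overlap were admitted.

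Another set of large changes appeared with ectopic ey in all 3 kinds of disc. Of the 148 genes that rose at least 2-fold in Uey antennal discs, 87 rose in both UAS-ey leg and UAS-ey wing discs, 17 only passed the test in leg, 14 only in wing and 30 in neither. The background was 11.0% of genes higher and 12.2% lower in UAS-ey leg discs, and 3.26% higher and 2.97% lower in UAS-ey wing discs. Of the 48 genes that fell at least 2-fold, 16 fell in both other discs, 22 only passed in leg, 0 only in wing and 10 in neither.

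Pxt, a peroxidase-family gene known from the ovary, was at 11.58, 11.69 and 11.72 on the Uey arrays and at the floor on the wt arrays, at least 26.9-fold higher. It rose by 3.35 in leg and 2.50 in wing discs, and its antennal change was larger than both (adjusted p = 2.2e-04 and 3.7e-07 for the differences). Cyp4p2, a cytochrome P450 gene, was at 10.81, 10.88 and 10.89 in Uey and at the floor in wt, at least 15.4-fold higher. Tektin-C, named for a structural protein of the ciliary axoneme, was at 10.67, 10.79 and 10.88 in Uey and at the floor in wt antennal discs, at least 14.6-fold higher. Its leg and wing changes were 3.81 and 3.86, beside 3.87 in antennal discs. The neprilysin-like peptidase gene Nepl3 was at 11.10, 11.16 and 11.15 in Uey, against 7.53, 7.32 and 7.15 in wt antennal discs (log2 change 3.81, SE 0.12), with changes of 3.49 in leg and 3.48 in wing discs.

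Hairpin RNA genes, whose long inverted repeats are cut into small interfering RNAs, were among the largest rises. hpRNA:CR32207 was at 11.30, 11.37 and 11.40 on the Uey arrays and at the floor on the wt arrays, at least 21.7-fold higher, with changes of 4.02 in leg and 4.12 in wing discs. hpRNA:CR33940 was at 12.02, 12.004 and 12.03 in Uey, against 8.61, 8.50 and 8.39 in wt antennal discs (log2 change 3.52, SE 0.12), with changes of 3.12 in leg and 3.06 in wing discs. Repeated sequence can make such probe sets respond to related transcripts. The BTB zinc finger gene chinmo, a regulator of developmental timing, averaged 11.19 in Uey and 8.43 in wt discs (log2 change 2.76, SE 0.32, adjusted p = 7.2e-06), and the mean over its 3 probe sets was 1.82. The insulin-like peptide gene Ilp8, which discs secrete when their growth is disturbed, was at 9.31, 9.28 and 9.29 in Uey and at the floor in wt antennal discs, at least 5.21-fold higher. Its change was 3.49 in leg and 0.83 in wing discs, and the antennal change lay below the leg change and above the wing change by test.

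The largest fall was that of GstD3, a glutathione S-transferase gene. It was at 7.62, 7.54 and 7.59 on the Uey arrays, against 11.23, 11.24 and 11.20 on the wt arrays (log2 change -3.64, SE 0.09, adjusted p = 4.9e-16). Its change was -2.96 in leg and -3.05 in wing discs, and the antennal fall was the larger by test (adjusted p = 0.0038 and 0.020 for the differences). Of 34 measured glutathione S-transferase genes, 5 rose (14.7%, against 8.56% of all genes) and 5 fell (14.7%, against 5.82%). GstD3 has near-identical neighbours in a gene cluster that its probe set may not tell apart. Zip102B, a ZIP-family zinc transporter gene, was at 9.47, 9.52 and 9.53 in Uey, against 11.49, 11.69 and 11.61 in wt antennal discs, with changes of -2.09 here, -2.46 in leg and -1.90 in wing discs. The homeobox gene vis, which has the close copy achi, was at the floor on all 3 Uey arrays, against 9.02, 9.22 and 9.12 on the wt arrays, at least 4.62-fold lower. It changed by -2.23 in leg and by -2.09 in wing discs. Kmn1 (a kinetochore protein gene), spt4 (a transcription elongation factor) and pinta (a retinoid-binding protein gene) had log2 changes of -1.90, -1.81 and -1.77 and fell in leg and wing discs too. The serine protease gene easter (ea) changed by -2.06 in antennal discs, more than the -1.34 in leg and -1.41 in wing discs (adjusted p = 0.011 and 0.039 for the differences).

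**Figure D3:**
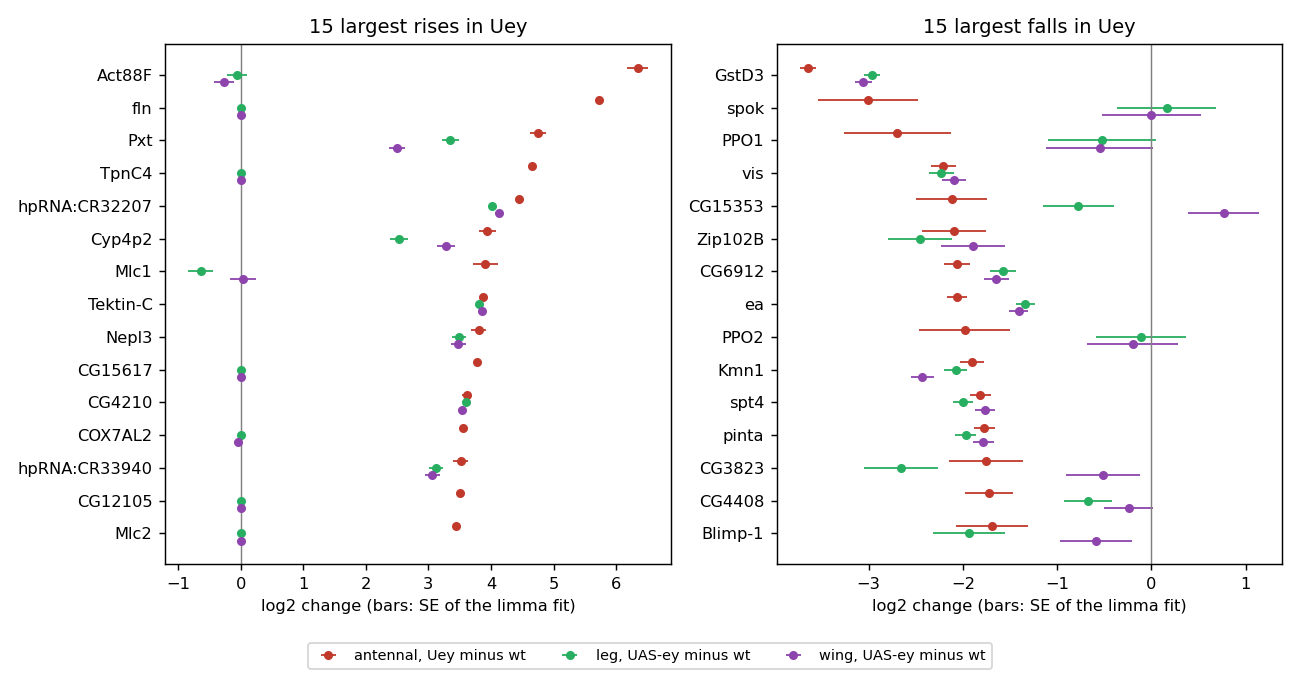
Log2 change of the 15 genes with the largest rise and the 15 with the largest fall in Uey antennal discs, beside their UAS-ey minus wild-type changes in leg and wing discs. Bars are standard errors of the limma fit, which understate the spread of genes at the floor in most groups. Act88F, fln, TpnC4, Mlc1, Mlc2, CG15617, COX7AL2 and CG12105 rise in antennal discs and lie near 0 or below in leg and wing discs, whereas for Tektin-C, CG4210 and vis the changes of the 3 discs lie close together.

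Some steroid synthesis genes of the ring gland, the endocrine organ that makes ecdysone, were lower in Uey antennal discs. Spookier (spok), an enzyme gene of an early step, was at the floor on all 3 Uey arrays, against 9.85, 9.94 and 9.96 on the wt arrays, at least 8.02-fold lower (adjusted p = 7.1e-04). Phantom (phtm), a later enzyme gene of that pathway, was at the floor in Uey, against 8.56, 8.41 and 8.39 in wt antennal discs, at least 2.91-fold lower (adjusted p = 0.0023). In discs of wild-type larvae both were at the floor in leg and wing, while in eye discs 1 of the 4 arrays was at the floor for both. The eye arrays averaged 9.12 for spok and 8.19 for phtm, and 9.86 and 8.62 without that array. Shadow (sad) changed by -0.96, and Start1 and the adipokinetic hormone gene Akh by -0.27 and -0.41. Of 13 measured genes of the list, which holds Akh beside steroid genes, these 5 fell (38.5%, against 5.82% of all genes) and 0 rose. The counts were also 5 and 0 at an unadjusted p under 0.05, where 11.96% of all genes were lower and 13.6% higher. Dib and sro, of the steroid pathway, changed by -0.02 and -0.04 and did not pass the test. The summed signal of the list was 3273 to 3360 on the Uey arrays, against 4997 to 5052 on the wt arrays. The ring gland marker nvd was at the floor on all 6 arrays, and so was spo of the same list. Whether attached ring gland tissue takes part in these differences was not tested.

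A few genes of blood cells were lower too, 4 of 15 measured (26.7%, against 5.82% of all genes), and 1 was higher. PPO1 and PPO2, the prophenoloxidases of crystal cells, are known for melanisation. PPO1 was at the floor on all 3 Uey arrays, against 9.65, 9.66 and 9.52 on the wt arrays, at least 6.48-fold lower (adjusted p = 0.0034). PPO2 was at 7.73, 7.62 and 7.63 in Uey, against 9.72, 9.58 and 9.62 in wt antennal discs (log2 change -1.98, SE 0.48, adjusted p = 0.0096). Neither fell in leg or wing discs beyond the test's threshold, and the difference of the antennal change from the leg and wing changes did not pass for either gene. The phagocytic receptor gene eater was at the floor in Uey, against 8.24, 8.36 and 8.18 in wt antennal discs, and its call was lost on leaving out any 1 of the 6 arrays (adjusted p = 0.079 to 0.10). Hml and Pxn, markers of plasmatocytes, changed by -0.43 and -0.29 and did not pass, and srp was at the floor on all 6 arrays. The summed signal was 5892 to 6332 in Uey and 8800 to 9457 in wt antennal discs. The count of 4 was 2 without Uey replicate 2 or without wt replicate 1. Of 10 measured fat body genes, 2 rose (20%, against 8.56% of all genes) and 0 fell. Obp44a rose by 1.87 and the transferrin gene Tsf1 by 0.88, the mean over the 3 probe sets of Tsf1 being 0.28. The storage protein genes Lsp2 and Fbp1 changed by -1.02 and -0.80 without passing the test. The summed signal of the fat body list overlapped between the groups, at 3732 to 3976 in Uey and 3704 to 3912 in wt antennal discs. Of the salivary gland list, 0 of 13 genes passed with limma, at an unadjusted p under 0.05 too.

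Genes of the ecdysone response moved in both directions. Of 16 measured, 2 rose (12.5%, against 8.56% of all genes) and 4 fell (25%, against 5.82%). The nuclear receptor gene ftz-f1 was at 11.53, 11.47 and 11.53 on the Uey arrays, against 9.45, 9.99 and 9.69 on the wt arrays (log2 change 1.80, SE 0.30, adjusted p = 4.3e-04). Hr3, a receptor gene induced before ftz-f1 in the prepupal sequence, was at the floor in Uey, against 8.0004, 8.08 and 7.95 in wt antennal discs, at least 2.14-fold lower. Blimp-1, a repressor of ftz-f1 in that sequence and outside the list, was at 8.66, 8.70 and 8.72 in Uey, against 10.60, 10.20 and 10.34 in wt discs (log2 change -1.69, SE 0.38, adjusted p = 0.0058). It changed by -1.94 in leg and -0.59 in wing discs. Leaving out any 1 of the 6 arrays left 1 gene of the list higher and 2 lower, with Hr3 at an adjusted p of 0.084 to 0.10.

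Genes at the core of the retinal determination network rose, and eya, so, dac and Optix did not reach the eye disc's levels. Of 11 measured, 4 rose (36.4%, against 8.56% of all genes) and 1 fell (9.09%, against 5.82%). Eya was at 11.31, 11.29 and 11.41 on the Uey arrays, against 9.56, 9.44 and 9.31 on the wt arrays, and at 12.67 ± 0.04 in wild-type eye discs (SD, n = 4). So was at 8.59, 8.65 and 8.61 in Uey, against 7.13, 7.11 and 6.92 in wt antennal discs, and at 10.58 in eye discs. The Uey arrays lay between the wt antennal and the eye arrays for both. Dac and the homeobox gene Optix changed by 1.43 and 1.32. They averaged 11.63 and 10.10 in Uey antennal discs, below the 12.20 and 10.93 of eye discs. Toy, the other Pax6 gene, was at 11.84, 11.83 and 11.87 in Uey, against an already high 11.46, 11.59 and 11.54 in wt antennal discs, a change of 0.32 that did not pass. The proneural gene ato changed by 0.45 and did not pass either. Eyg, a Pax gene that promotes eye disc growth, was the member that fell, at 8.07, 8.18 and 8.30 in Uey, against 8.93, 8.73 and 8.68 in wt antennal discs (log2 change -0.59, SE 0.12, adjusted p = 0.0018). Its change was 0.35 in leg and 0.15 in wing discs, and the antennal change was below both by test.

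The photoreceptor regulators glass (gl) and lozenge (lz) rose. Gl was at 8.90, 8.95 and 8.99 on the Uey arrays and at the floor on the wt arrays, at least 4.09-fold higher, and at 12.08 in eye discs. Lz was at 8.57, 8.73 and 8.80 in Uey, against 7.86, 7.68 and 7.48 in wt antennal discs (log2 change 1.03, SE 0.26, adjusted p = 0.013), and its call was lost without Uey replicate 3 (adjusted p = 0.054) or wt replicate 3 (adjusted p = 0.065). The adhesion gene rst, phyl and sev rose by 0.79, 0.44 and 0.41. With gl and lz, 5 of 19 measured photoreceptor and cone cell genes were higher and 0 lower. The counts were 8 and 1 at an unadjusted p under 0.05, against 13.6% and 11.96% of all genes. Of nerve cell genes, 3 of 17 rose (17.6%, against 8.56% of all genes). Appl, the amyloid precursor protein-like gene of neurons, was at 9.93, 10.06 and 10.16 in Uey, against 7.34, 7.22 and 7.21 in wt antennal discs (log2 change 2.79, SE 0.25, adjusted p = 2.7e-07). Ank2, a neuronal ankyrin gene, was at 8.76, 8.49 and 8.71 in Uey and at the floor in wt, at least 3.35-fold higher, but its 5 probe sets had a mean change of 0.36. Elav changed by 0.95 (SE 0.25, adjusted p = 0.016), a call lost on leaving out any array but Uey replicate 1 and wt replicate 3 (adjusted p = 0.051 to 0.079). Sens, the R8 and sensory organ gene, was at 8.88, 8.83 and 8.86 in Uey, against 9.53, 9.64 and 9.52 in wt discs, and so fell.

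Against this, dan and danr, nuclear regulators used in both eye and antenna, did not pass the test. Danr was at 11.69, 11.62 and 11.71 on the Uey arrays, against 11.68, 11.64 and 11.65 on the wt arrays. Dan was at 10.35, 10.36 and 10.38 in Uey, against 10.27, 10.25 and 10.22 in wt antennal discs. Their UAS-ey changes were 3.78 and 2.73 in leg and 2.72 and 1.90 in wing discs, whose wild-type levels were at or near the floor, and the antennal changes were below both by test.

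Genes of antennal identity mostly did not pass the test. Of 19 measured, 1 rose (5.26%) and 2 fell (10.5%), against 8.56% and 5.82% of all genes. The gene that rose was lz, which is on 2 lists. Ss and Dll, which specify the distal antenna, changed by 0.14 and 0.40, and ct by 0.09, and none passed. The 2 that fell were the bric-a-brac genes, which act in the distal segments of antenna and leg. Bab1 was at 7.09, 7.14 and 7.39 on the Uey arrays, against 8.34, 8.45 and 8.15 on the wt arrays (log2 change -1.11, SE 0.12, adjusted p = 4.3e-06). Bab2 was at 11.26, 11.23 and 11.30 in Uey, against 12.18, 12.20 and 12.20 in wt antennal discs (log2 change -0.93, SE 0.12). Ap, the LIM homeobox gene of dorsal wing and distal leg, was at the floor in Uey, against 7.96, 8.05 and 7.98 in wt, at least 2.12-fold lower, with a mean change of -0.54 over its probe sets. Dfd, the Hox gene of the maxillary and lower head, was at 10.42, 10.50 and 10.62 in Uey, against 11.24, 11.27 and 11.20 in wt antennal discs (log2 change -0.73, SE 0.09, adjusted p = 1.6e-05), and at 9.23 in eye discs.

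**Figure D4:**
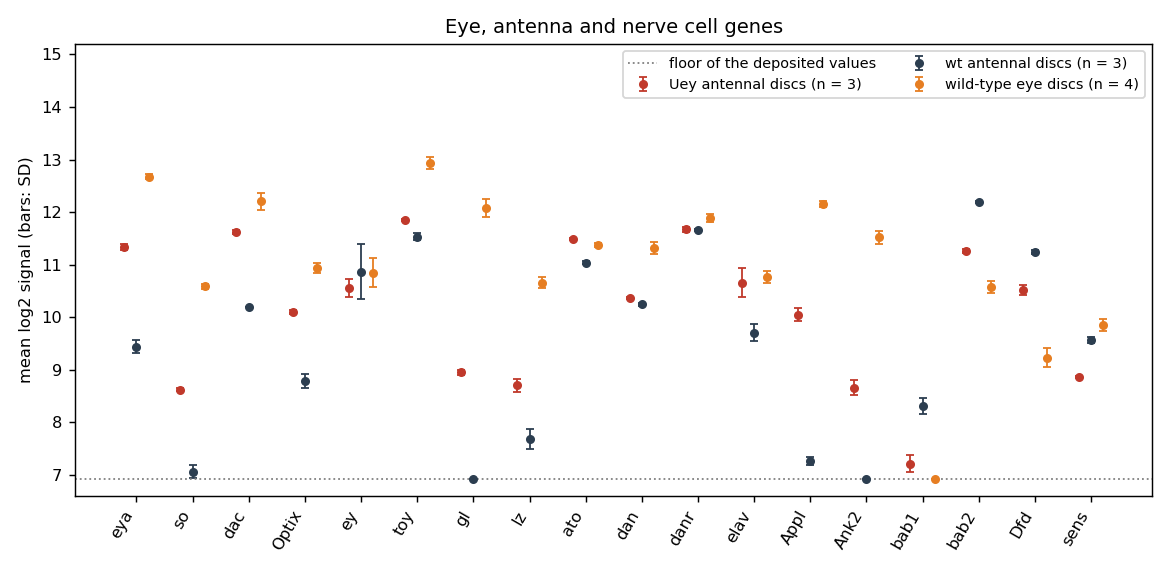
Mean log2 signal of 18 eye, antenna and nerve cell genes in Uey antennal, wt antennal and wild-type eye discs, with SD bars. The dotted line is the floor. For eya, so, dac, Optix, gl, lz, Appl and Ank2 the Uey mean lies between the wt antennal and the eye mean, and for dan and danr the Uey and wt antennal means nearly coincide.

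The contrast of eye discs with wild-type leg and wing discs shares no array with the antennal comparison. Both take their spread from the same fit, so the calls are not wholly independent. Of the 148 genes that rose at least 2-fold in Uey, 53 (35.8%) were higher in eye than in leg and wing discs by test, against 11.0% of all genes, and 24 were lower (16.2%, against 17.3% of all genes). Of 235 genes at least 2-fold higher in eye discs, 85 rose in Uey antennal discs (36.2%, against 8.56% of all genes) and 9 fell (3.83%, against 5.82%). Act88F, fln, TpnC4, Mlc2, CG15617, CG12105, CG4210, Pxt and Tektin-C were not among them, since they were at the floor on the eye arrays.

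Called changes in the Notch, EGF receptor, Hedgehog, Dpp and Wingless lists were all under 2-fold, and in the JAK/STAT list chinmo, given above, was past it. Of 14 measured genes of Notch and the E(spl) complex, 7 rose (50%, against 8.56% of all genes) and 0 fell. The counts at an unadjusted p under 0.05 were 9 and 0, against 13.6% and 11.96% of all genes. The E(spl) repressor genes are direct outputs of Notch: E(spl)m7-HLH, E(spl)mdelta-HLH and E(spl)m3-HLH rose by 0.69, 0.59 and 0.52. E(spl)mdelta-HLH was at 11.75, 11.79 and 11.81 on the Uey arrays, against 11.15, 11.23 and 11.20 on the wt arrays. The Bearded-family gene Brd rose by 0.59. The ligand gene Delta changed by 0.22 (SE 0.07, adjusted p = 0.033), but its call was lost without wt replicate 1 or any Uey array (adjusted p = 0.069 to 0.19). Of 9 genes of the EGF receptor pathway 3 rose (33.3%, against 8.56% of all genes). These were the ligand gene spi (0.34), kek1 (0.67) and the feedback inhibitor gene aos (0.47). The call of aos was lost on leaving out any array but wt replicate 2 (adjusted p = 0.053 to 0.12). The JAK/STAT ligand gene upd1 was at 9.25, 9.26 and 9.34 in Uey, against 8.46, 8.39 and 8.27 in wt antennal discs (log2 change 0.91, SE 0.16, adjusted p = 6.9e-04). Hh and inv, genes of posterior compartments, fell by 0.41 and 0.52 on the log2 scale, the call of hh being lost without Uey replicate 2 or wt replicate 1 (adjusted p = 0.060 and 0.069). Hairy (hry), a repressor made ahead of the furrow, rose by 0.73 (SE 0.11, adjusted p = 1.9e-04).

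Small shifts ran through some housekeeping groups. Of 40 measured proteasome subunit genes, 16 fell (40.0%, against 5.82% of all genes), by 0.15 to 0.38 on the log2 scale. The number that rose was 0. At an unadjusted p under 0.05 the counts were 20 lower and 0 higher, against 11.96% and 13.6% of all genes. Rpn7, of the regulatory lid, was at 11.61, 11.65 and 11.60 on the Uey arrays, against 11.97, 11.99 and 11.96 on the wt arrays (log2 change -0.35, SE 0.05, adjusted p = 3.0e-05), and the ATPase subunit gene Rpt4 changed by -0.38. The count of 16 is 5 when each array is centred on its median, which moves all changes up by 0.027. Of 34 cytosolic ribosomal protein genes, 0 passed the test with limma (1 at an unadjusted p under 0.05). In the cell cycle list 5 of 15 rose (33.3%, against 8.56% of all genes). All 5 were genes of replication origins, among them Mcm2 by 0.38 and Mcm3 by 0.35. The count is 3 with centred arrays or without wt replicate 3.

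A few genes of secreted matrix and trachea rose. Of 12 matrix genes, 3 rose (25%, against 8.56% of all genes) and 0 fell. The metalloprotease gene Mmp2 was at 8.61, 8.58 and 8.54 in Uey and at the floor in wt antennal discs. Trol (perlecan) rose by 0.89 and LanA (laminin) by 0.23. The call of LanA was lost on leaving out any array but Uey replicate 2 (adjusted p = 0.060 to 0.092). Mmp2 had a mean change of 0.83 over its probe sets and trol of 0.19. Of 9 tracheal genes, 4 rose (44.4%, against 8.56% of all genes), among them the chitin synthase gene kkv by 0.81. Of 79 cuticle protein genes, 6 rose (7.59%) and 1 fell (1.27%), both below the shares of all genes. Cpr66D rose by 1.39 and Cpr100A by 1.97, while Cpr49Ac changed by -1.65. Of 81 cytochrome P450 genes, 8 rose (9.88%, near the 8.56% of all genes) and 3 fell (3.70%, below 5.82%). Cyp6a17 was at 10.19, 10.26 and 10.22 in Uey and at the floor in wt, at least 9.92-fold higher. Among 212 odorant-binding and chemosensory genes, 7 rose and 1 fell, fewer than the background. At least 2-fold higher were Gr64a, a gustatory receptor gene that averaged 7.99 in Uey and was at the floor in wt, and Obp44a. Obp44a is also on the fat body list and was at 9.16, 9.24 and 9.30 in Uey, against 7.52, 7.32 and 7.26 in wt antennal discs (log2 change 1.87, SE 0.42, adjusted p = 0.0055). Obp44a was at 11.74 in eye discs, and its leg and wing changes of -0.24 and -0.38 did not pass the test.

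**Figure D5:**
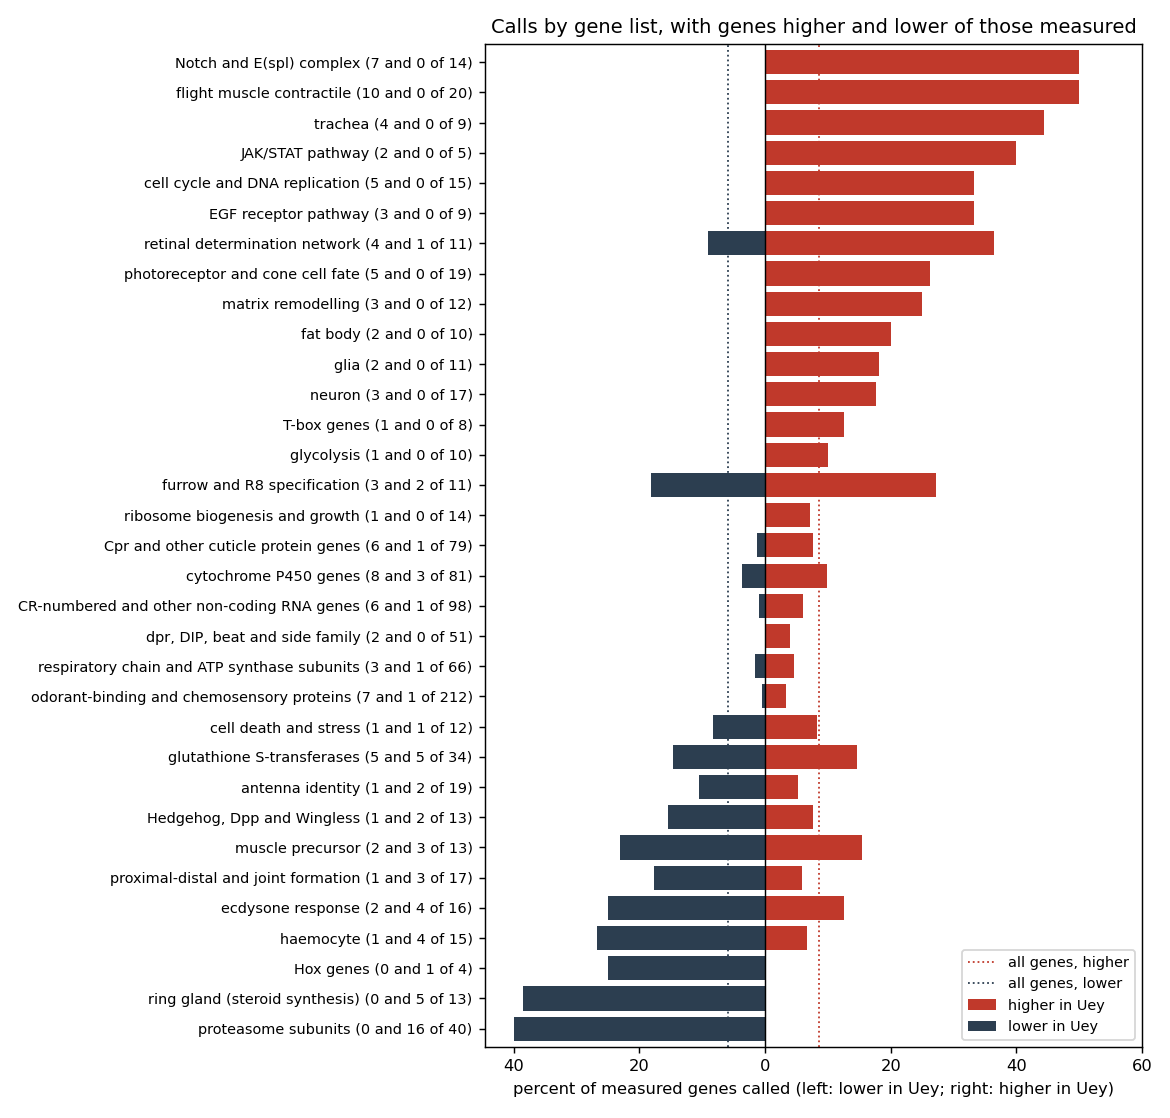
Share of measured genes called lower (left) and higher (right) in Uey antennal discs, for each list or gene family with at least 1 call. The counts beside each name are genes higher and lower of those measured, and dotted lines mark 8.56% and 5.82%, the shares of all genes. The Notch and flight muscle lists reach 50% on the right, and the proteasome and ring gland lists reach 40% and 38.5% on the left.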

How the data were processed

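Per the labels' protocols, Trizol was used for extraction, and cRNA was made by a two-cycle amplification and labelled with biotin. The deposited values are on a log2 scale, 1 per probe set and array, as their range showed. No summary method, software or scaling is stated in the labels. The lowest value, shared by every array, was treated as a floor set by the authors. SE and adjusted p understate the spread for genes at the floor in most groups. Where a group was wholly at the floor, folds are lower bounds computed against it.

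The 183 control probe sets were left out. Group means were fitted to all 25 arrays with limma 3.58.1 in R 4.3.3 (lmFit, contrasts, eBayes; 17 residual degrees of freedom), two-sided, with Benjamini-Hochberg adjustment over 18769 probe sets and a threshold of 0.05. The fit was tested on simulated data. Differences between discs were contrasts of contrasts. Of the probe sets, 13646 had 1 gene in GEO's platform annotation, 402 had several and 4721 none. The probe set with the highest mean over all arrays represented a gene. Probe sets of eEF1alpha2, COX7AL2, CG42748, dac, spi, inv, kirre, htl and CG3777 share sequence with other transcripts, by the suffix of their names.

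The members, 28 gene lists and 11 families were chosen with earlier results of these data known; 89 of 433 list entries had no probe set of their own. The rule named 12 eye genes, the 15 largest rises and falls and the 8 largest among CG-numbered genes (adjusted p under 0.05, no overlap of arrays, higher mean above the median of all values), up to 3 members per list and direction, and up to 8 genes per direction that differed from both leg and wing discs. Genes outside it are values of whole lists or were named after their values were seen. Alternatives were another scaling, a filter, other array sets, covariates and a replicate block.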

Additional observations from a re-analysis of the deposited data

Results flagged for a closer look

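The results below stand out because the antennal change differs from both the leg and the wing change in the same direction, by a test of each difference over arrays that the comparisons do not share. Act88F (6.34 on the log2 scale), fln (5.73), TpnC4 (4.66), Mlc1 (3.91) and Mlc2 (3.44) rose in Uey antennal discs and had changes of -0.64 to 0.04 in leg and wing discs. The same holds for CG15617 (3.77), COX7AL2 (3.55) and CG12105 (3.51), with changes of -0.04 to 0.00 there.

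Lower than in both other discs were the changes of ea (-2.06), Dfd (-0.73), CG3777 (-0.66), Esp (-0.62) and eyg (-0.59). CG3777 was at 10.88, 10.91 and 10.98 on the Uey arrays and at 11.59, 11.63 and 11.52 on the wt arrays, against changes of 0.76 in leg and 0.39 in wing discs, and the mean over its probe sets was -0.44. Esp was at 6.94, 6.95 and 6.94 in Uey and at 7.74, 7.57 and 7.38 in wt, all near the floor. Osi6 rose in antennal discs too (0.61), but by less than the 1.22 in leg and 1.203 in wing discs, and danr (0.02) and dan (0.12) did not pass the test in antennal discs while they rose in both others. Dfd and Esp were at the floor in leg and wing discs of wild-type larvae, where a fall could not be measured. What underlies these differences was not tested.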

How the results depend on the processing

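The count of 2160 probe sets was 4114 in a fit on the 6 antennal arrays alone (54.2% higher, against 61.2%), where the spread comes from these arrays only. It lay between 1558 and 1745 when 1 of the 6 arrays was left out and between 1642 and 2387 under quantile normalization, centring, a filter on low values, moderation with trend and the GAPDH and phe covariates. The at least 2-fold falls numbered 92 without wt replicate 1, against 58. No named gene that passed the test reversed its direction; danr, at 0.017, ranged from -8.3e-05 to 0.043 when 1 array was left out. Same-numbered arrays did not deviate together (r = -0.35, -0.27 and -0.44), and pairs with unlike numbers had r of -0.14 to 0.44. Deviations from a mean of 3 arrays sum to 0, so this check cannot exclude that arrays were processed together. With the replicate number as a block, 1712 probe sets passed, and 27 of the named genes lost their call and 1 gained it. In the fit on the 6 antennal arrays alone, 4 named genes lost their call and 3 that had not passed gained one. Leaving out 1 array cost 15 to 21 named genes their call. Where a named gene had several probe sets, the mean over them moved the change of 11 genes and left that of 3 alike. The floor limits low genes, and 3 arrays a group limit the precision.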

Other observations

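Genes on the X chromosome, placed by the RefSeq gene table (Release 6), were called higher more often than autosomal ones. Of 1869 X-linked genes, 244 rose (13.1%) and 58 fell (3.10%) in Uey antennal discs, against 771 (7.75%) and 637 (6.40%) of 9947 autosomal genes. Few of these were large, and at 2-fold the X-linked share of rises was below that of all genes. At least 2-fold, 15 X-linked genes rose (0.803%, against 1.24% of all genes) and 9 fell (0.482%, against 0.401%). The mean X-linked minus mean autosomal log2 signal was -0.055, -0.054 and -0.046 on the Uey arrays, against -0.109, -0.113 and -0.113 on the wt arrays, a difference of 0.060 without overlap (exact permutation test, two-sided, p = 0.1, the smallest that 3 against 3 arrays can give). The same difference was 0.027 in leg and 0.032 in wing discs, each without overlap and with the same p. The X-linked calls stayed more often higher than lower under every alternative run, from 145 higher and 53 lower with the replicate block to 372 higher and 151 lower on the 6 arrays alone. Calls over all probe sets were also more often higher under every alternative, at 54.2% to 69.4%. Autosomal calls were not counted for each alternative. Of 7 measured genes of dosage compensation and sex, 0 passed the test with limma (1 at an unadjusted p under 0.05); roX1 and roX2 of that list had no probe set of their own. The sources used here do not give the sex of the larvae, and its part in these values was not tested.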
